A study of Homo sapiens with 15 samples.

Results

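The glycolysis and hypoxia-responsive genes described here are 39 genes chosen by name: glucose transporters, glycolytic enzymes and their regulators, enzymes and transporters that decide the fate of pyruvate and lactate, oxygen sensors, other hypoxia-responsive genes, and MXRA5, which encodes a matrix protein and belongs to neither pathway. The deposited table lists all 39 among its 61533 gene identifiers, and 37 of them passed the filter on low counts, which left 18391 genes in all. Glycolysis turns glucose into pyruvate in the cytosol, and cells short of oxygen raise its enzymes, its glucose transporters and the export of lactate through the transcription factor HIF-1. The oxygen-sensitive subunit of HIF-1, encoded by HIF1A, is marked for destruction by prolyl hydroxylases of the EGLN family while oxygen is present, so the targets of HIF-1 and its own regulators are often followed together.

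RNA-seq of polyA RNA was made from HEK293T, a human embryonic kidney line transformed with adenoviral genes and the SV40 large T antigen, in 15 libraries that form 5 groups of 3. SPARK-OFF cells carried the oncogenic fusion YAP-MAML2, which joins the TEAD-binding part of YAP to the transactivation domain of MAML2, tagged with FKBP and mEGFP, together with a nuclear mCherry-Frb protein. Rapamycin joins FKBP to Frb, and the mCherry thereby recruited dissolves the condensates that the fusion otherwise forms. SPARK-OFF cells given DMSO for 5 h are called condensed and those given rapamycin for 5 h diffuse. The no-mCherry control cells carried tagged YAP-MAML2 without the mCherry part and were given DMSO or rapamycin for 5 h, and the eGFP control cells expressed eGFP with no fusion and were labelled as mock-treated with no duration. The sources used here give neither the promoter that drives the fusion, nor whether a line is 1 clone, nor whether replicates are separate cultures, so p-values measure the spread between these libraries, which may be technical. The description field of the no-mCherry DMSO libraries names rapamycin while both other labels name DMSO, and they are treated as DMSO libraries here.

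The libraries held 14720387 to 24797509 counts, with a median of 17631701. MAML2, part of the fusion, had a mean of 3.63 CPM (counts scaled to library size with TMM factors) in eGFP cells, 415 in condensed, 540 in diffuse, 220 in no-mCherry DMSO and 243 in no-mCherry rapamycin cells, and YAP1 had 52.8, 202, 267, 131 and 148 CPM. The amount of fusion mRNA therefore differed between the 2 lines and between the condensed and the diffuse cells, and its part in any difference below was not tested. For the protein, the study reports that levels of the fusion stayed the same when its condensates were dissolved. All 6 markers listed for HEK293 cells, among them NEFL at 40.6 to 100 CPM and VIM at 128 to 235 CPM, were detected in every library, while CD3E and HBB were at 0 in all 15, the 3 endothelial markers stayed at or below 1.09 CPM and APOA1, a hepatocyte marker, lay at 0.437 to 2.06 CPM. No-mCherry DMSO replicate 3 stood apart, with the lowest TMM factor, 0.901. The mitochondrial genome supplied 2.86 to 3.33% of each SPARK-OFF library and 3.67 to 3.93% of each remaining library, and whether this bears on the results was not tested.

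HIF-1 binds the core sequence ACGTG or GCGTG, and the promoters of the members are shown first because they are the sequences through which the pathway's shared regulation is best known. RefSeq promoter windows on GRCh38.p14, each of 250 bases before and 50 after a transcription start, were matched for 33 of the 39 members, which gave 61 windows. PFKFB2, SLC16A1, SLC2A3, BNIP3L, NDRG1 and VEGFA had no entry. ACGTG on either strand (ACGTG or CACGT) stood in 24 of the 61 windows, 39.3%, against 21.4% of 35116 windows of the same length over all genes. GCGTG (or CACGC) stood in 41.0% of the members' windows and in 36.5% of all windows. The E-box CACGTG, which contains ACGTG, stood in 13.1% and 7.26%, and GGAATG (or CATTCC), the motif of the TEAD factors that YAP-MAML2 binds through, stood in 11.5% and 14%. Counted per gene, over the 33 members and 27305 symbols with at least 1 window, the shares with a match were 60.6% and 24.9% for ACGTG, 60.6% and 40.6% for GCGTG, 24.2% and 8.77% for CACGTG and 18.2% and 16.7% for GGAATG, so for GGAATG the order of members and all genes turned. A gene with several windows has more chances of a match. These are matches of letters and not sites shown to be bound. The bases before the start are printed 5′ to 3′ for 4 members that fell against eGFP cells in both SPARK-OFF groups and have different places in the pathway, with both HIF-1 cores, on either strand, in capitals and without any base of an exon annotated on the same strand. HK2 is read from chr2:74833877-74834126 on the plus strand, PFKL from chr21:44299803-44300050 on the plus strand, LDHA from chr11:18394313-18394559 on the plus strand and EGLN1 from chr1:231422288-231422537 on the minus strand.
HK2: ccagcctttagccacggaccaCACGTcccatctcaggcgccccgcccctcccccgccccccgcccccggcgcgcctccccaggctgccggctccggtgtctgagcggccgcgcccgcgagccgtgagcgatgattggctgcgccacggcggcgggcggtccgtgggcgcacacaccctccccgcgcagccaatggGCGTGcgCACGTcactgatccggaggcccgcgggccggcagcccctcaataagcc
PFKL: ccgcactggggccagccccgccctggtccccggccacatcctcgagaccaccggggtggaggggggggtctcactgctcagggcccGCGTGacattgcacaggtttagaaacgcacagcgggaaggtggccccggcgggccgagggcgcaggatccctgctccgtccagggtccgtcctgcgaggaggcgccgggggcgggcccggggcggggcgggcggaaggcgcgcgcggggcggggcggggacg
LDHA: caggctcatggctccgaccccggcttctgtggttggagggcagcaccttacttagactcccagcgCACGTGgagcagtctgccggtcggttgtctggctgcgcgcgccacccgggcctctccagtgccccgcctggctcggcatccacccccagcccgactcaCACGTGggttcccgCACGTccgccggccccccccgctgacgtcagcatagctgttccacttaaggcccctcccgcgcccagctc
EGLN1: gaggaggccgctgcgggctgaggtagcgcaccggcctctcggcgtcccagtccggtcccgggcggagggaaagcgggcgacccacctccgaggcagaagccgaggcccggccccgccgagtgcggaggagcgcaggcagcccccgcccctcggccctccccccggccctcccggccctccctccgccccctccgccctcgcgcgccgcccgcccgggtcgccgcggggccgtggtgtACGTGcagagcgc
In the bases printed, LDHA held 2 copies of CACGTG and 1 further CACGT, HK2 held CACGT on either side of GCGTG, and PFKL and EGLN1 held 1 match each. HK2 and LDHA each have a second window that is not printed. That of HK2, chr2:74834920-74835219, held 2 copies of CACGTG and 2 matches of GCGTG, and that of LDHA held 1 match of GCGTG.

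The members spanned a wide range of levels. Per exon length, ENO1 (enolase), TPI1 (triosephosphate isomerase) and GAPDH had the highest means over all libraries, 510, 429 and 384 RPKM, followed by PGAM1 at 175 and PGK1 and PKM at 128 each. LDHA had 110 RPKM, while HK1 had 12.6, HK2 8.65, SLC2A3 6.6 and SLC2A1 4.02. Not every later enzyme was abundant: PFKM had 10.3 RPKM, PFKP 8.08, ENO2 5.36 and ALDOC 1.49. ALDOA was counted at 0.556 RPKM, but it shares exon bases on the same strand with a second annotated gene. Its abundance therefore cannot be read from this value. Summed CPM over the members reached 11341, 10421 and 10092 in the eGFP libraries, 9303, 8539 and 8605 in the condensed and 8230, 8314 and 8615 in the diffuse libraries. The no-mCherry libraries had 9443, 8922 and 10092 with DMSO and 8810, 9530 and 9252 with rapamycin, and their range overlapped that of the condensed libraries. Both SPARK-OFF groups lay wholly below the eGFP libraries in this sum, and ENO1 alone made up 28.6% of it and the top 5 members 70.3%, so it mainly follows a few abundant enzymes.

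Some members cannot be read at face value. ALDOA, the muscle and general form of aldolase, had only 1.61 to 2.84 CPM, and 42.8% of its exon bases are shared on the same strand with a second annotated gene. The same holds for 33.4% of LDHB, which had 7.68 to 22.1 CPM, and 55.8% of EGLN1, and all 3 partners are annotated as protein-coding. Reads that fall in shared exons may not have been counted, and whether this set their levels was not tested. ANKRD37 shares 40.3% of its exon bases with UFSP2 on the opposite strand, and reads of the pair cannot be told apart without a known strand setting. GAPDH has 65 named pseudogenes, BNIP3 44 and PGAM1 13, and their reads could be split. The counts given to these pseudogenes summed to a mean of 2.72, 0.95 and 1.08 CPM, far below the members themselves. Whether reads that match both were left uncounted was not tested. CA9, the carbonic anhydrase often used as a hypoxia marker, and MXRA5 did not pass the filter: each was at 0 in 14 of 15 libraries, with 0.0396 CPM for CA9 in diffuse replicate 3 and 0.0506 CPM for MXRA5 in no-mCherry rapamycin replicate 2.

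Condensed cells were compared with eGFP cells to see how the pathway stood while the fusion formed condensates. Of the 15 glycolytic enzymes 8 fell, by 0.26 to 0.62 on the log2 scale, and none rose, while the glucose transporter SLC2A3 was several times higher. In bulk RNA, fewer cells that express a gene and less of its RNA per cell cannot be told apart. Of the 37 members tested, 19 were called at an adjusted p under 0.05, 3 higher and 16 lower, where 27.1% of all genes were called, 13% higher and 14.1% lower. The median log2 fold change of the members was -0.26, against 0.0045 over all genes, and the 95% interval lay within ±0.58 for 21 members, 0.58 being the fold that the study's DEG rule asks for. Under that rule (P under 0.01, absolute log2 fold change of at least 0.58, FDR under 0.1) 3 members remained, SLC2A3, NDRG1 and PFKL, where 13.2% of all genes passed. The libraries of 21 members did not overlap between the groups, as for 40.5% of all genes.

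SLC2A3, a glucose transporter of high affinity best known from neurons (hg38, chromosome 12, 7919230 to 8019007, minus strand), rose most. It had 11.8, 11.7 and 10.7 CPM in the eGFP libraries, 87.9, 83.6 and 88.3 in the condensed, 80.6, 72.3 and 72.9 in the diffuse, 34.3, 32.7 and 28.4 in the no-mCherry DMSO and 34.9, 34.5 and 32.8 in the no-mCherry rapamycin libraries. The eGFP libraries were the lowest of all, and each no-mCherry library lay between the eGFP and the SPARK-OFF libraries. The difference of condensed from eGFP cells was 2.92 on the log2 scale (SE 0.099, edgeR's adjusted p = 3.97e-16), a fold of 7.59. SLC2A1, the transporter present in most cell types, had 30.7, 31.5 and 27.9 CPM in eGFP and 33.3, 32.9 and 30.2 in condensed cells, and the groups overlapped. Its log2 difference was 0.1, with a 95% interval of -0.13 to 0.33 (edgeR's adjusted p = 0.564). Per exon length, SLC2A3 made up 25.7 ± 0.398% (SD, n = 3) of the sum of both transporters in eGFP cells and 71.1 ± 1.48% in condensed cells. SLC2A14, a near-identical copy of SLC2A3 with which it could share reads, was far lower, with 0.675 to 1.09 CPM in condensed cells and 1 eGFP library above 0, at 0.0625. Like SLC2A3, it was lowest in eGFP and highest in condensed cells. Its means were 0.0208 CPM in eGFP, 0.829 in condensed, 0.654 in diffuse, 0.285 in no-mCherry DMSO and 0.219 in no-mCherry rapamycin cells. Whether reads of the pair were exchanged was not tested.

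**Figure D1:**
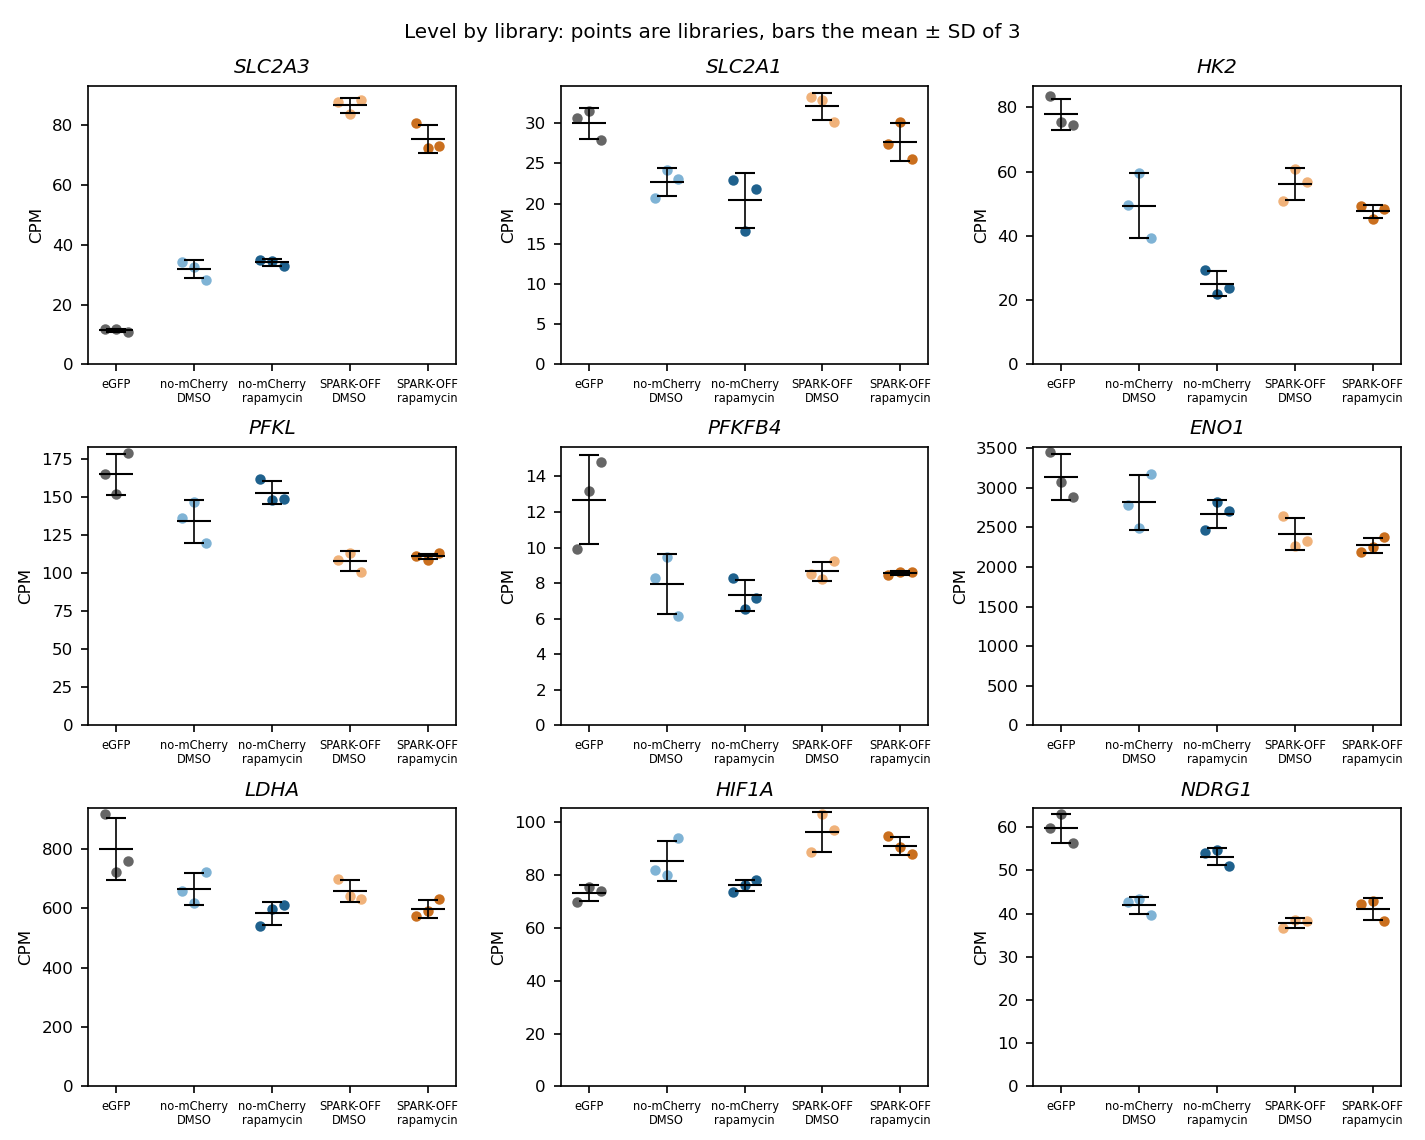
Level of 9 members in CPM (y axis, from 0) in each library of the 5 groups (x axis), with bars for the mean ± SD of 3 libraries. SLC2A3 is lowest in eGFP cells at 10.7 to 11.8 CPM and highest in condensed cells at 83.6 to 88.3, HK2 is lowest in no-mCherry cells with rapamycin at 22.0 to 29.3, and PFKL, ENO1 and NDRG1 are lower in condensed than in eGFP cells.

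The upper part of glycolysis, from glucose to the triose phosphates, fell in 5 of 9 members and rose in none. PFKL, the liver form of phosphofructokinase, the main control step of glycolysis, had 165, 152 and 179 CPM in eGFP and 109, 113 and 101 in condensed cells with no overlap, a log2 difference of -0.62 (SE 0.0917, edgeR's adjusted p = 3.36e-05). The other forms of the enzyme fell less, PFKP by 0.39 and PFKM by 0.26 on the log2 scale, so that PFKL made up 45.5 ± 2.34% of the 3 forms per exon length in eGFP cells and 40.5 ± 1.27% in condensed cells. HK2, the inducible hexokinase bound to mitochondria, fell by 0.47 from 83.5, 75.3 and 74.6 CPM to 50.8, 60.8 and 56.8, and GPI, the isomerase of glucose 6-phosphate, fell by 0.5. HK1, ALDOA, ALDOC and TPI1 did not pass the test, at -0.2, -0.55, -0.24 and -0.15. Of the bifunctional enzymes that set the sugar phosphate activating phosphofructokinase, PFKFB4 fell by 0.55 and PFKFB3 by 0.37, and PFKFB2 stood at -0.1.

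Of the 6 lower enzymes 3 fell and none rose. ENO1, the most abundant member, had 3450, 3072 and 2882 CPM in eGFP and 2643, 2264 and 2330 in condensed cells with no overlap, and fell by 0.38 (SE 0.0981, edgeR's adjusted p = 0.00617). GAPDH and PKM, the kinase that makes pyruvate, fell by 0.31 each. PGAM1 at -0.21 and PGK1 at -0.18 did not pass, nor did ENO2, the neuronal enolase, at 0.05. Beyond pyruvate, LDHA, which makes lactate, fell by 0.28, and PDK1, a kinase that inhibits pyruvate dehydrogenase, fell by 0.49. LDHB and PDK3 did not pass, at -0.18 and -0.23. SLC16A3, the lactate exporter known as MCT4, was called higher at 0.87 (SE 0.318, edgeR's adjusted p = 0.0442) on 1.31, 1.71 and 1.39 CPM in eGFP against 3.18, 3.26 and 1.54 in condensed cells, groups that overlapped. SLC16A1, the more abundant MCT1, stood at -0.02 with 163 to 198 CPM in eGFP cells and 160 to 192 in condensed cells.

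All 3 oxygen-sensing members were called. HIF1A rose from 69.7, 75.7 and 74.0 CPM in eGFP to 88.6, 103 and 97.0 in condensed cells with no overlap, a log2 difference of 0.4 (SE 0.0887, edgeR's adjusted p = 0.00193). EGLN3 fell by 0.52 and EGLN1 by 0.42. HIF-1 activity is set mainly at the protein level, which was not measured. Of the 8 other hypoxia-responsive genes tested 2 fell: NDRG1, a stress-responsive gene, by 0.66 (SE 0.0879, edgeR's adjusted p = 8.52e-06) and P4HA1, a collagen prolyl hydroxylase, by 0.44. NDRG1 had 59.7, 63.1 and 56.4 CPM in eGFP and 36.6, 38.6 and 38.2 in condensed cells. VEGFA, the angiogenic factor, stood at -0.27, BNIP3 and BNIP3L, receptors for the removal of mitochondria, at -0.07 and 0.11, P4HA2 at -0.09, ANKRD37 at -0.52 and the histone demethylase KDM3A at 0.13, none of them called.

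The calls of 10 of the 19 members held under each of 12 other settings, namely SLC2A3, NDRG1, PFKL, HK2, GPI, PDK1, ENO1, PKM, HIF1A and EGLN3. GAPDH lost its call without condensed replicate 3, EGLN1 and P4HA1 each without condensed replicate 2 or eGFP replicate 1, and LDHA without either of condensed replicates 2 and 3 or eGFP replicate 1. PFKFB3 lost its call without condensed replicate 1 or 3 or eGFP replicate 2 or 3, PFKM without the same libraries or with no filter, and PFKFB4 without condensed replicate 1 or 2 or eGFP replicate 2 or 3. PFKP lost its call without condensed replicate 1 or 3 or any 1 eGFP library, and SLC16A3 without condensed replicate 1 or 2 or any 1 eGFP library and when only the 6 libraries compared were fitted.

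**Figure D2:**
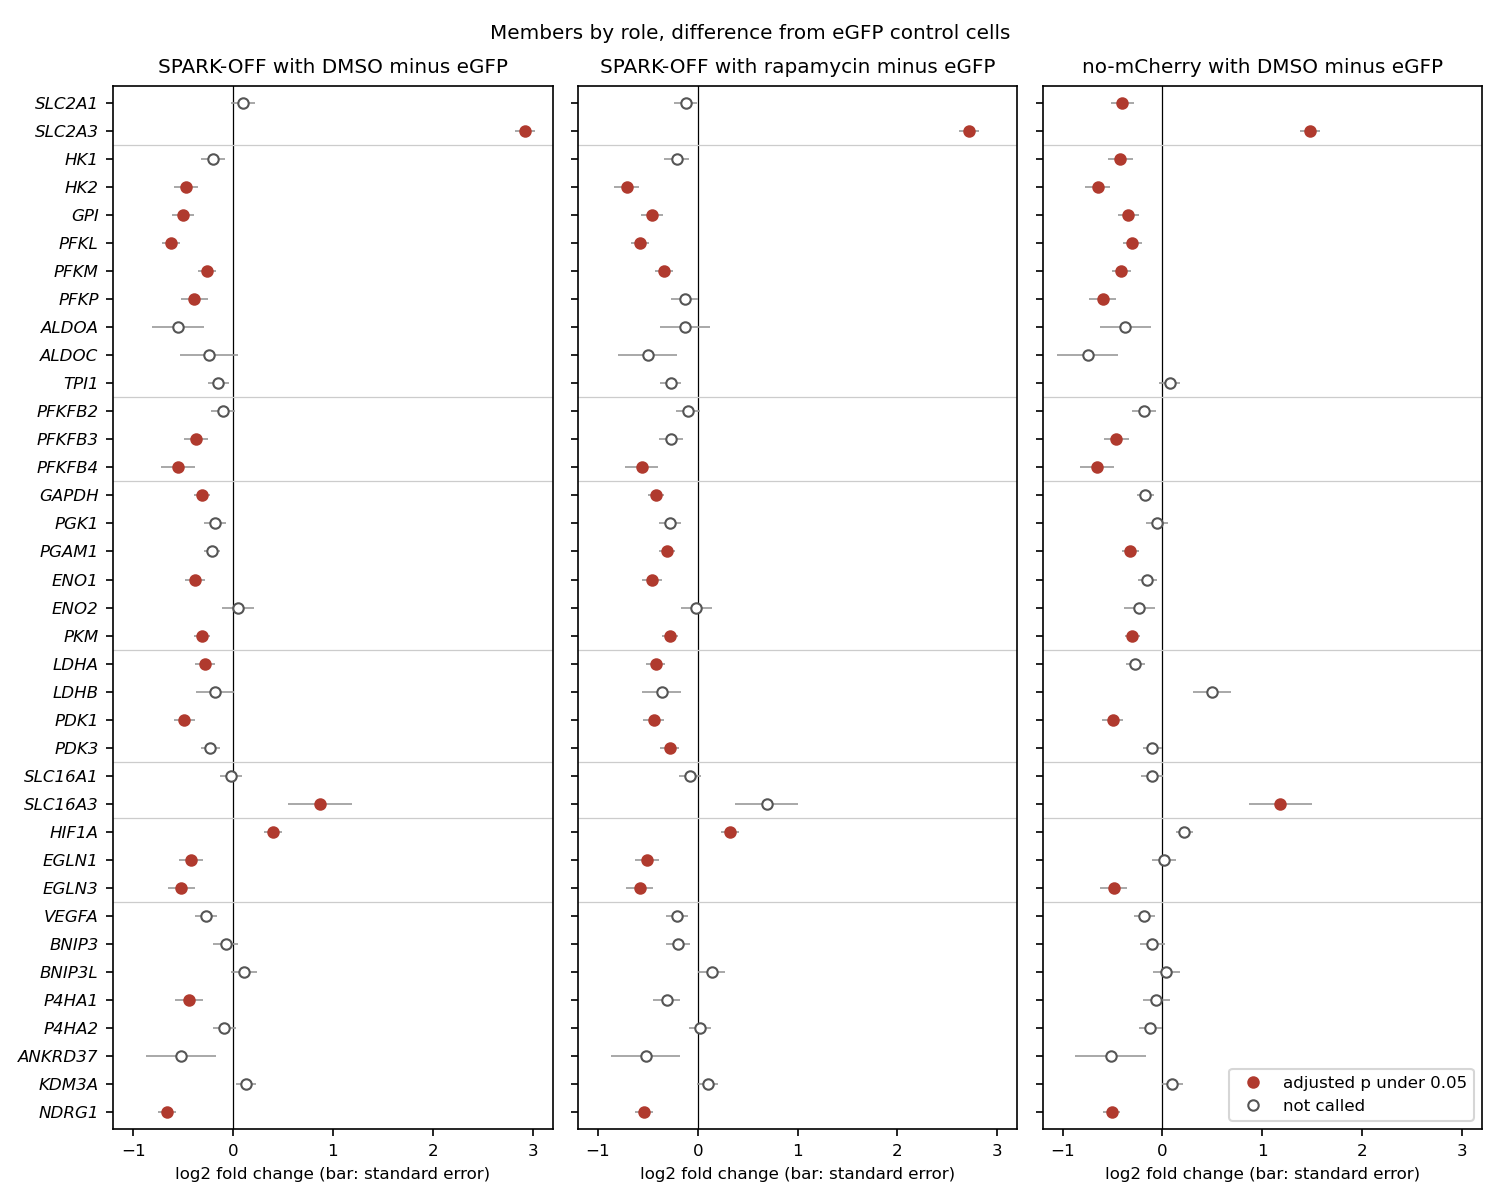
Log2 fold change against eGFP cells (x axis) with its standard error for the 37 members tested (y axis, grouped by role), for condensed, diffuse and no-mCherry DMSO cells. Filled points passed an adjusted p of 0.05: 19, 17 and 16 members, of which 16, 15 and 14 lie left of 0, and SLC2A3 lies far to the right at 2.92, 2.72 and 1.48.

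Diffuse cells were compared with the same eGFP libraries, so the values below share their controls with those above. Diffuse cells also had rapamycin for 5 h, and its effect cannot be told apart from that of the fusion in this comparison. Of the 37 members 17 were called, 2 higher and 15 lower, where 23.9% of all genes were called, 11.4% higher and 12.5% lower. The median of the members was -0.28, against 0.0063 over all genes, and 2 members, SLC2A3 and HK2, passed the DEG rule, which 11.6% of all genes passed. The libraries of 23 members did not overlap between the groups, as for 40.6% of all genes. SLC2A3 was higher by 2.72 (SE 0.0991, edgeR's adjusted p = 1.63e-15). HK2 had 49.2, 45.3 and 48.4 CPM, below every eGFP library, and fell by 0.71 (SE 0.124, edgeR's adjusted p = 0.000244).

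By role, the upper enzymes fell in 4 of 9 members: besides HK2, PFKL fell by 0.58, GPI by 0.46 and PFKM by 0.34. PFKFB4 fell by 0.56, while PFKP had 70.4, 72.7 and 70.7 CPM against 75.4 to 79.7 in eGFP cells and was not called at -0.13. Lower glycolysis fell in 4 of 6 members, ENO1 by 0.46, GAPDH by 0.42, PGAM1 by 0.31 and PKM by 0.28. TPI1 and PGK1 stood at -0.27 and -0.28 without a call. LDHA fell by 0.42, PDK1 by 0.44 and PDK3 by 0.28. HIF1A was higher by 0.32 EGLN1 lower by 0.51 and EGLN3 lower by 0.58, and NDRG1 was the called member among the 8 other hypoxia-responsive genes, lower by 0.54 at 42.3, 42.8 and 38.2 CPM. SLC16A3 stood at 0.69 with an adjusted p of 0.119. The calls of 13 of the 17 held under each of 12 other settings. PFKFB4 lost its call without eGFP replicate 2 or 3, PFKM without diffuse replicate 3 or eGFP replicate 3, PKM without diffuse replicate 2 or 3, and PDK3 without diffuse replicate 1 or 3, without eGFP replicate 2 or 3 and with no filter.

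Diffuse cells were then set against condensed cells. This contrast joins the dissolution of the condensates to any other effect of rapamycin, and the 2 cannot be told apart in it. No member was called by edgeR's quasi-likelihood test or by DESeq2, where 0.13% of all genes were called, and 1 member, SLC2A3, had an unadjusted p under 0.05. SLC2A3 was lower in diffuse cells by 0.2 on the log2 scale (95% interval -0.38 to -0.03, edgeR's adjusted p = 0.837), with the 3 diffuse libraries at 72.3 to 80.6 CPM below the 3 condensed libraries at 83.6 to 88.3. Over the 37 members the differences ran from -0.26 for ALDOC to 0.42 for ALDOA, both at a few CPM, with a median of -0.055 against -0.008 over all genes. The 95% interval lay within ±0.58 for 33 of 37 members, so a difference of that size lies outside the interval for those. The libraries of 5 members did not overlap, as for 12.8% of all genes. HK2 stood at -0.24 and PFKP at 0.26. The SLC2A3 share of both transporters was 71.1 ± 1.48% in condensed and 71.2 ± 2.33% in diffuse cells.

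**Figure D3:**
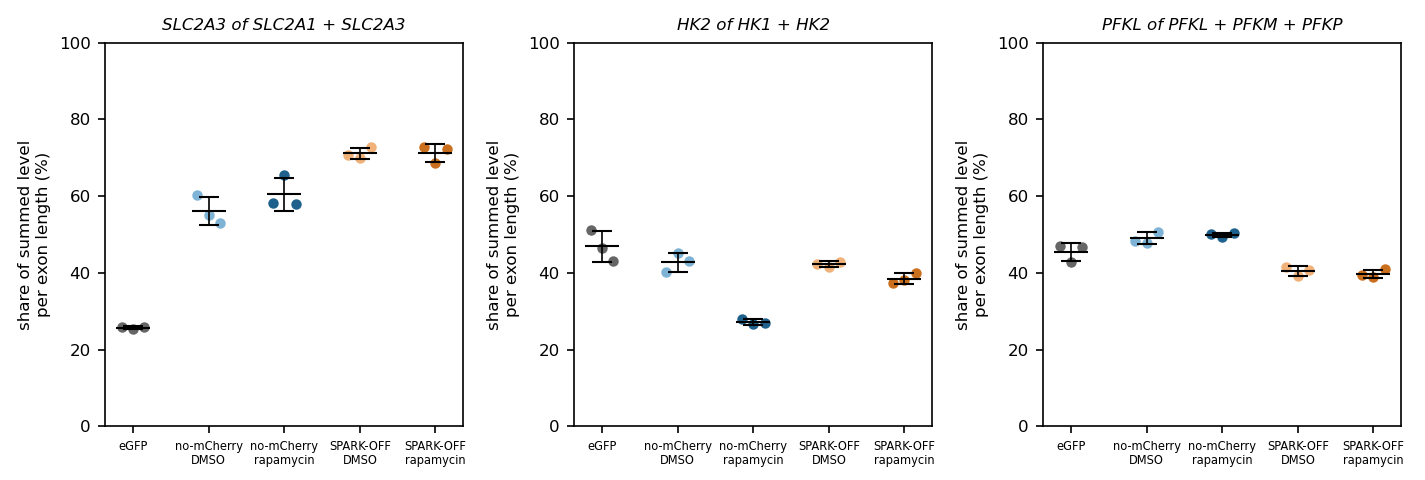
Share of 1 member in the summed level per exon length of its family, in % (y axis, 0 to 100), by library and group (x axis), with bars for the mean ± SD of 3 libraries. SLC2A3 rises from 25.7% of the transporter pair in eGFP cells to 71.1% in condensed cells, HK2 is lowest at 27.2% in no-mCherry cells with rapamycin, and PFKL lies at or below 41.5% in every SPARK-OFF library and at 42.8 to 50.7% in the others.

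Rapamycin inhibits mTORC1, a kinase complex known to promote glycolytic gene expression, so its effect without dissolution was measured in no-mCherry cells. HK2 was the member that changed most. It had 49.5, 59.6 and 39.2 CPM with DMSO and 29.3, 22.0 and 23.9 with rapamycin, with no overlap, and fell by 0.98 on the log2 scale (SE 0.129, edgeR's adjusted p = 0.000325), a fold of 0.506. Per exon length HK2 made up 42.8 ± 2.5% of HK1 and HK2 together with DMSO and 27.2 ± 0.769% with rapamycin, while HK1 stood at 0.02. NDRG1 was higher with rapamycin by 0.35 (SE 0.0878, edgeR's adjusted p = 0.0472), at 53.9, 54.8 and 50.9 CPM against 42.6, 43.4 and 39.6. These were the 2 of 37 members called, 1 in each direction, where 1.62% of all genes were called, 0.451% higher and 1.17% lower, and the median of the members was -0.062 against -0.00088 over all genes. HK2 alone passed the DEG rule, which 0.821% of all genes passed, and the libraries of 9 members did not overlap, as for 19.4% of all genes. The HK2 call held in 11 of 12 other settings and was lost, at an adjusted p of 0.0534, when only the libraries compared were fitted. The NDRG1 call held in 2 of the 12 and was lost when any 1 of the 6 libraries was left out. VEGFA at -0.34 and BNIP3L at 0.34 had unadjusted p of 0.00477 and 0.0182 and were not called.

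The response to rapamycin was then compared between the lines as an interaction, which is the difference seen in SPARK-OFF cells minus that in no-mCherry cells. No member was called by edgeR's quasi-likelihood test, where 0.0979% of all genes were called, and 3 had an unadjusted p under 0.05, while DESeq2 called 1, HK2. HK2 was lower with rapamycin by 0.24 in SPARK-OFF cells and by 0.98 in no-mCherry cells, an interaction of 0.75 (95% interval 0.39 to 1.1, unadjusted p = 0.0004, edgeR's adjusted p = 0.142). Its adjusted p ran from 0.00574 to 0.421 over 18 other settings and passed in 4 of them: with no filter on low counts, with DESeq2, with edgeR's likelihood ratio test, and without no-mCherry DMSO replicate 3, which has the lowest HK2 level of its group. VEGFA and SLC2A3 had interactions of 0.4 and -0.3 with unadjusted p of 0.0152 and 0.0271. The median interaction was -0.0073, against 0.016 over all genes, and the 95% interval lay within ±0.58 for 27 of 37 members.

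**Figure D4:**
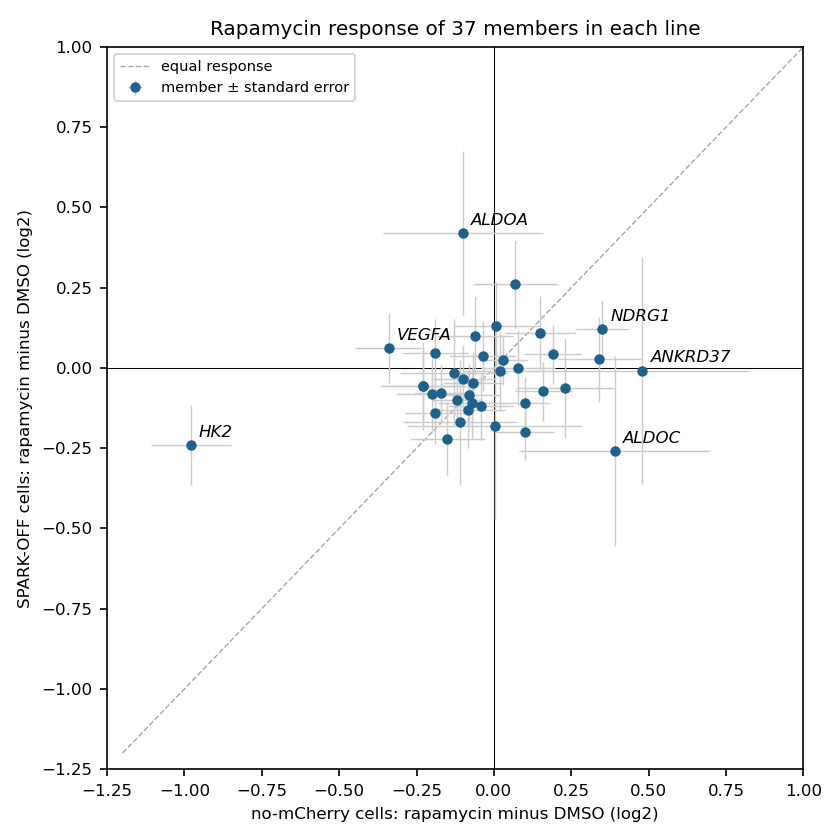
Log2 difference between rapamycin and DMSO for the 37 members tested, in no-mCherry cells (x axis) and in SPARK-OFF cells (y axis), with standard errors, and a dashed line where both are equal. Most members lie near 0 in both lines, and HK2 lies apart at -0.98 and -0.24.

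No-mCherry DMSO cells, which carry the fusion without the mCherry part, were compared with eGFP cells to see how the members stood in a second line with the fusion. Of the 37 members 16 were called, 2 higher and 14 lower, where 13.5% of all genes were called, 7.08% higher and 6.41% lower. The median was -0.23, against 0.0057 over all genes. These values share the eGFP libraries with the SPARK-OFF comparisons. Each line differs from eGFP cells in its making and its DMSO or rapamycin as well as in the fusion, which cannot be told apart. The DEG rule was passed by 5 members, where 5.87% of all genes passed: SLC2A3 at 1.48 (SE 0.102, edgeR's adjusted p = 5.87e-10), SLC16A3 at 1.18, PFKFB4 at -0.66, HK2 at -0.65 and PFKP at -0.6. SLC16A3 had 3.92, 3.64 and 2.52 CPM, above every eGFP library. The libraries of 22 members did not overlap between the groups, as for 28.6% of all genes.

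Among the upper enzymes 6 of 9 fell, HK1 by 0.42, PFKM by 0.41, GPI by 0.34 and PFKL by 0.3 besides HK2 and PFKP. SLC2A1 fell by 0.4, from 27.9 to 31.5 CPM to 20.7, 24.2 and 23.1 with no overlap. PFKFB3 fell by 0.46, PDK1 by 0.5, EGLN3 by 0.49, NDRG1 by 0.51, PGAM1 by 0.32 and PKM by 0.3. ENO1 at -0.15, GAPDH at -0.17, LDHA at -0.27, HIF1A at 0.22 and EGLN1 at 0.01 did not pass. The calls of 3 members, SLC2A3, HK2 and NDRG1, held under each of 12 other settings. The count fell to 9 without no-mCherry DMSO replicate 3, without eGFP replicate 2 or without eGFP replicate 3, and to 4 when only the 6 libraries compared were fitted. PFKFB4 lost its call when any 1 of these 3 libraries was left out, and SLC16A3 without eGFP replicate 3.

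Condensed cells were also set against no-mCherry DMSO cells, 2 lines that carry the fusion and had DMSO but differ in mCherry-Frb and in fusion mRNA. Of the 37 members 5 were called, 2 higher and 3 lower, where 7.03% of all genes were called, 3.78% higher and 3.25% lower, and the median was 0.011 against -0.022 over all genes. Both glucose transporters were higher in condensed cells, SLC2A3 by 1.45 (SE 0.0912, edgeR's adjusted p = 3.94e-10) and SLC2A1 by 0.5 (SE 0.117, edgeR's adjusted p = 0.0112). LDHB was lower by 0.68, on 13.4, 7.68 and 12.7 CPM against 22.1, 15.8 and 16.6, and EGLN1 by 0.44 and PFKL by 0.32 as well. SLC2A3 and LDHB passed the DEG rule, which 4.51% of all genes passed, and the libraries of 8 members did not overlap, as for 23.2% of all genes. SLC2A3 kept its call under each of 12 other settings, and SLC2A1 lost its call without no-mCherry DMSO replicate 1. LDHB lost its call without condensed replicate 2 or 3 or no-mCherry DMSO replicate 1, EGLN1 without any 1 condensed library or no-mCherry DMSO replicate 3, and PFKL without any 1 condensed library or no-mCherry DMSO replicate 1 or 2. The count was 3 without condensed replicate 1 and 2 without condensed replicate 2, condensed replicate 3 or no-mCherry DMSO replicate 1, and LDHB and EGLN1 are among the members that share exons with other genes.

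The neighbouring genes of the same pathways, 85 by a list of their own with 78 tested, were counted beside the members. In condensed against eGFP cells 28 were called, 13 higher and 15 lower, where 27.1% of all genes were called, 13% higher and 14.1% lower, and the median was 0.0024. The pentose phosphate pathway, which takes glucose 6-phosphate away from glycolysis to make NADPH and ribose, fell in 5 of 7 genes and rose in none, with PGLS lower by 0.59 and TKT by 0.31. The other hypoxia-responsive genes were split, 7 higher and 7 lower of 29: ADM, the vasodilator adrenomedullin, rose by 3.03 (SE 0.124, edgeR's adjusted p = 1.26e-14), whereas DDIT4, an inhibitor of mTORC1, fell by 1.75 (SE 0.13, edgeR's adjusted p = 1.22e-09) and BHLHE40 by 1.23. Of the 11 other HIF subunits and oxygen-sensing genes tested 3 rose and none fell: CITED2, which competes with HIF-1 for its coactivator, by 1.78, ARNT2 by 0.53 and ELOC by 0.43. Of the 24 other glycolysis and glucose uptake genes 19 were tested and 5 called, 2 higher and 3 lower, and of the 12 genes of mitochondrial pyruvate entry 1, PDHX, was called, higher by 0.29.

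In diffuse against eGFP cells 27 of the 78 were called, 11 higher and 16 lower, where 23.9% of all genes were called. In no-mCherry DMSO against eGFP cells 17 were called, 4 higher and 13 lower, where the share of all genes was 13.5%. ADM had 8.12, 8.02 and 6.53 CPM in eGFP, 64.9, 56.9 and 64.4 in condensed, 44.2, 38.9 and 39.5 in diffuse, 22.5, 20.9 and 18.3 in no-mCherry DMSO and 19.4, 24.0 and 22.9 in no-mCherry rapamycin cells. Its libraries were lowest in eGFP cells and highest in condensed cells. Diffuse against condensed cells gave 2 calls, against 0.13% of all genes, ADM lower by 0.61 (SE 0.107, edgeR's adjusted p = 0.0118) and KLF10 higher by 0.49. In no-mCherry cells KLF10 had 30.3, 32.3 and 32.6 CPM with DMSO and 38.1, 37.5 and 44.1 with rapamycin, without overlap but not called. Rapamycin in no-mCherry cells gave 3 calls, against 1.62% of all genes, STC2 lower by 0.72, DDIT4 by 0.56 and PDP2, a phosphatase that activates pyruvate dehydrogenase, by 0.5. Condensed against no-mCherry DMSO cells gave 8, 5 higher and 3 lower, against 7.03% of all genes, among them ADM at 1.6, CITED2 at 0.81 and DDIT4 at -0.49. The interaction gave none by edgeR's quasi-likelihood test, against 0.0979% of all genes, with 7 at an unadjusted p under 0.05 and 1 by DESeq2.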

How the data were processed

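The values used are raw gene counts as deposited by the authors, whole numbers without normalization. By the study's methods, fastp trimming preceded STAR alignment to hg38, and HTSeq, FastQC and edgeR appear besides fastp in the submitters' processing notes. The sources used here give no version, annotation or strand setting. Identifiers were matched without version to GENCODE release 44 (61369 of 61533), which gave symbols, positions and exon lengths. Genes were kept by filterByExpr over the 5 groups, leaving 18391, and scaled by TMM. One quasi-likelihood fit in edgeR 4.0.16 (R 4.3.3, limma 3.58.1) over all 15 libraries, with group as the factor, gave every comparison, with Benjamini-Hochberg adjustment across the whole table. The call was an adjusted p under 0.05. Errors are Wald standard errors, intervals are 1.96 of them, and ± is the SD of 3 libraries. CPM and RPKM were computed from the counts.

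The members and the other lists were chosen with earlier results of these data known, so their counts are descriptions. All members were accounted for by role, with statistics for called members past the fold of the DEG rule, or the 3 largest where fewer passed, and 3 called genes of the other lists as examples. Further members and list genes were named for their values after these were seen. Other settings were RLE size factors, no filter, DESeq2 1.42.0, the likelihood ratio test, only the groups compared, a replicate block, and each library left out. Some genes of the marker and pathway lists are not reported here by name.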

Additional observations from a re-analysis of the deposited data

How the results depend on the processing

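No called member changed direction under any setting run. The study's DEG rule left 3 members in condensed and 2 in diffuse against eGFP cells, 1 for rapamycin in no-mCherry cells, 5 in no-mCherry DMSO against eGFP cells and 2 in condensed against no-mCherry DMSO cells. That rule changes the p, the FDR and the fold threshold together. Rapamycin in no-mCherry cells called 2 members, and 1 with RLE size factors, 1 with no filter and 0 when only the groups compared were fitted. The interaction called 0 members, and 1, HK2, with no filter, with DESeq2 and with the likelihood ratio test. Fitting only the groups compared left 4 of 16 calls in no-mCherry DMSO against eGFP cells and 2 of 5 in condensed against no-mCherry DMSO cells. Leaving out the members that share exons, chosen after seeing the data, left 3 of those 5. The cause of these changes was not tested.

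With 1 library left out, member counts ranged from 14 to 15 in condensed and 14 to 17 in diffuse against eGFP cells, 0 to 0 between these, 9 to 17 in no-mCherry DMSO against eGFP cells, 1 to 2 for rapamycin in no-mCherry cells, 0 to 1 for the interaction and 2 to 5 in condensed against no-mCherry DMSO cells. The interaction gave 1 without no-mCherry DMSO replicate 3.

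The replicate numbers did not pair the libraries: same-numbered libraries of different groups had correlations of their deviations of -0.14 to 0.0992, 0 of 30 pairs over 0.1. With the replicate number as a block, rapamycin in no-mCherry cells called 1 member, HK2, and condensed against no-mCherry DMSO cells lost PFKL; the block moved no other member call.

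Over all genes, counts of calls moved by over 1.5 times under these settings. Diffuse against condensed gave 24, and 61 with no filter, 68 with DESeq2, 64 with only the groups compared and 82 with the likelihood ratio test. Rapamycin in no-mCherry cells gave 298, and 760 with DESeq2, 574 with the likelihood ratio test and 3 with only the groups compared. The interaction gave 18, and 51 with no filter, 94 with DESeq2, 65 with the likelihood ratio test and 8 with the replicate block. Only the groups compared gave 583 in place of 2481 in no-mCherry DMSO against eGFP cells and 450 in place of 1293 in condensed against no-mCherry DMSO cells. With 1 library left out, the counts ranged from 11 to 19 for diffuse against condensed, 83 to 392 for rapamycin in no-mCherry cells, lowest without each rapamycin library in turn (83, 119 and 109), and 2 to 82 for the interaction, highest without no-mCherry DMSO replicate 3. They ranged from 972 to 3342 for no-mCherry DMSO against eGFP cells, with 972 without no-mCherry DMSO replicate 3 and 1225 and 988 without eGFP replicates 2 and 3, and from 673 to 1622 for condensed against no-mCherry DMSO cells, with 735 and 673 without condensed replicates 2 and 3. Low counts limit ALDOA, ALDOC, ANKRD37 and SLC16A3, whose standard errors were the 4 widest of the members in each comparison.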
